A study of Mus musculus with 2 samples.

Results

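The mouse genes for voltage-gated sodium and calcium channels were examined in single-cell RNA-seq of the cerebral cortex. The members were the genes whose symbol was Scn followed by a number and a or b, or began with Cacna1, Cacna2d, Cacnb or Cacng, leaving out antisense genes and pseudogenes. The rule gave 40 of the 55450 genes listed. The data came from 2 libraries of C57BL/6 mice that were 2 weeks old at collection, on postnatal day 14. The WMI library (white matter injury, replicate 1) came from a mouse model in which the right common carotid artery was tied on postnatal day 7, followed by 1 h of hypoxia. The Control library (replicate 1) was the cortex of the same side of mice labelled Control. The labels print the surgery for both libraries and do not say what was done to the control mice. They give no allele, transgene or drug in either group, and they describe nuclei, whereas the study's methods describe dissociated whole cells, earlier days and longer hypoxia. Each group had 1 library, so no difference between Control and WMI has a replicate check, no test was run, and the number of animals behind each library was not given in the labels. The study's methods describe several replicates of each group, whereas the labels hold replicate 1 of each.

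Voltage-gated sodium channels carry the rising phase of the action potential. Each has 1 large pore-forming alpha subunit, encoded by an Scn gene ending in a, and smaller beta subunits that set its gating and its place in the membrane. Calcium channels turn depolarisation into calcium entry. Their pore is a Cacna1 protein of the L, P/Q, N, R or T type, and the alpha2delta, beta and gamma proteins accompany it. Most of the gamma genes encode TARPs, which are better known as partners of AMPA-type glutamate receptors than of calcium channels. Oligodendrocyte precursor cells (OPCs) carry both channel families and receive synapses from neurons, and they lose most of these currents as they mature into oligodendrocytes (OLs).

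The libraries held 10288 barcodes in Control and 8354 in WMI, with 66470806 and 60568639 UMIs (unique molecular identifiers, each 1 counted RNA molecule). After removal of low-quality barcodes and predicted doublets, 8755 and 7571 cells remained, with medians of 4410 and 4966 UMIs. The cells fell into 32 clusters, of which 30 were named from marker genes and 2 were not. The libraries differed in more than the injury. Xist or Tsix was counted in 0.240% of Control cells and 64.2% of WMI cells, so the sex of the mice and the injury cannot be told apart. The median mitochondrial share was 0.0596% in Control and 0.456% in WMI. An unnamed cluster held 2357 Control cells and 79 WMI cells, and activated myeloid-like cells numbered 16 in Control and 986 in WMI. Excitatory neuron-like cluster 2, of shallow cells (median 1653 UMIs), held 1083 Control and 20 WMI cells. Levels below are UMIs per 1000000 UMIs of the cell class (CPM), with exact 95% intervals that cover counting error only. They describe how much of a class's RNA a gene made up, so a gene is compared with itself across classes and not with other genes.

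Expression of the members spanned a wide range. Of the 40, 15 had at least 10000 UMIs over all kept cells, 30 had at least 200 and 10 had fewer. The pore-forming genes of the P/Q, N and R types held 195422 UMIs together, the alpha2delta genes 178539, the L-type genes 146528, the calcium beta genes 138614 and the neuronal sodium alpha genes 125774. The 10 sparse members were those known from muscle, retina or peripheral nerve and a few relatives. Scn4a, the sodium channel of skeletal muscle, had 2 UMIs in all. Scn10a and Scn11a, sodium channels of pain-sensing neurons, had 13 and 15. Cacna1s, the calcium channel of skeletal muscle, had 25, and Cacna1f, that of the retina, 122. Scn4b had 50, Cacng1 50, Cacng6 84, Cacna2d4 121 and Scn7a 185 UMIs. The members are long genes, with a median length of 104.7 kb against 3.32 kb over all genes.

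The promoters of the members ranged from very rich to poor in CG dinucleotides, and 4 are printed to show this range. RefSeq start sites (GRCm38.p6) were at hand for 30 of the 40 members, and the window was the 250 bases before the start. Among members with at least 200 UMIs, 11 of 22 had a start site with 20 or more CG in that window, and among the sparser members 1 of 8 had one (Scn4b). Over all genes in the table the share was 19.7%. The pattern was not uniform, since Scn2a, an abundant gene, had start sites with 2 and 9 CG, both under that number. The poorer of these is printed. Cacna1d had start sites with 50 and 2 CG, and the richer of these is printed. CG reads the same on both strands, and each CG is in capitals below. Cacna1d lies at chr14:30353487-30353736 on the minus strand, inside the gene and upstream of an internal start, with 50 CG. Cacna2d1 lies at chr5:15934441-15934690 on the plus strand with 36, Scn2a at chr2:65620519-65620768 on the plus strand with 2, and Scn11a at chr9:119825457-119825706 on the minus strand with 3. None of the 4 windows overlaps an annotated exon.
Cacna1d: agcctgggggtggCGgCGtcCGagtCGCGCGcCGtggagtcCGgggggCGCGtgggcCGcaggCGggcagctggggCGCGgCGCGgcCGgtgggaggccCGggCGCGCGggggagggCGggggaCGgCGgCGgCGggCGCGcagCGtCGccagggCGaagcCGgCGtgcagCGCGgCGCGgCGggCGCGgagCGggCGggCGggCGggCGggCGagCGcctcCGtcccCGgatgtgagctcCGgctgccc
Cacna2d1: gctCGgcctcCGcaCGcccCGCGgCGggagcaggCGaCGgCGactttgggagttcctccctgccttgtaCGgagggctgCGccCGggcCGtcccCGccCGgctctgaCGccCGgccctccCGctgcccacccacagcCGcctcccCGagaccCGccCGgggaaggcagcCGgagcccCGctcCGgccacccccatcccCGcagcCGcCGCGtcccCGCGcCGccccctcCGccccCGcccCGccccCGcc
Scn2a: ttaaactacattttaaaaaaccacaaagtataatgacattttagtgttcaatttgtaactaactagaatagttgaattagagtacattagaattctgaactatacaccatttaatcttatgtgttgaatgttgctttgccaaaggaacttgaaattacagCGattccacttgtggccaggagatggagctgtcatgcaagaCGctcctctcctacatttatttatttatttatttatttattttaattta
Scn11a: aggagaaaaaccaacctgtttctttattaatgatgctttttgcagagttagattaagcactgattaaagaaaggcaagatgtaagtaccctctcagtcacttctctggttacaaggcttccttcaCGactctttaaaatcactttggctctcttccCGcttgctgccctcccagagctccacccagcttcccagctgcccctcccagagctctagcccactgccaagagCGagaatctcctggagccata

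Neurons held the largest share of member RNA. The 40 members together made up 0.943% of UMIs in excitatory neuron-like cells of Control and 0.889% in WMI, against 0.80% and 0.756% in inhibitory neuron-like cells. In OPC-like cells the share was 0.673% and 0.580%, in pre-OL-like cells (between precursor and oligodendrocyte) 0.414% and 0.361%, and in mature OL-like cells 0.326% and 0.303%. The share thus went down along the oligodendrocyte lineage in each library. Astrocyte-like cells held 0.366% and 0.335%.

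Microglia-like cells, which should hold little of these RNAs, had 0.531% in Control and 0.563% in WMI. RNA released from broken neurons and caught in droplets (free RNA) can give UMIs in any cell, and so can doublets that were not removed. These cells were used as a gauge of such background, and its source was not tested. The gauge differed between libraries, since most of its cells came from cluster 12 in Control (397 of 420) and from cluster 8 in WMI (697 of 889). The 10 excitatory marker genes summed in microglia-like cells to 50.6% of their level in excitatory neuron-like cells in Control and 55.9% in WMI, and none of them was at 0. Single markers varied widely, from 31.5 to 127% in Control and from 49.1 to 141% in WMI. The members stood at a median of 54.0% (range 16.2 to 164%) and 66.2%. Cacnb2 and Scn2b exceeded every excitatory marker on this scale in Control. A member's level in a glial class is therefore set beside the microglia-like level below. A level at or under it is not read as above background. The excitatory markers summed to less in other glial classes, at 37.5% and 34.0% of their excitatory level in OPC-like cells. In astrocyte-like cells they stood at 34.5% and 27.9%, and in mature OL-like cells at 22.9% and 16.1%. Whether a level under the microglia-like one was background in those classes was not tested.

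**Figure D1:**
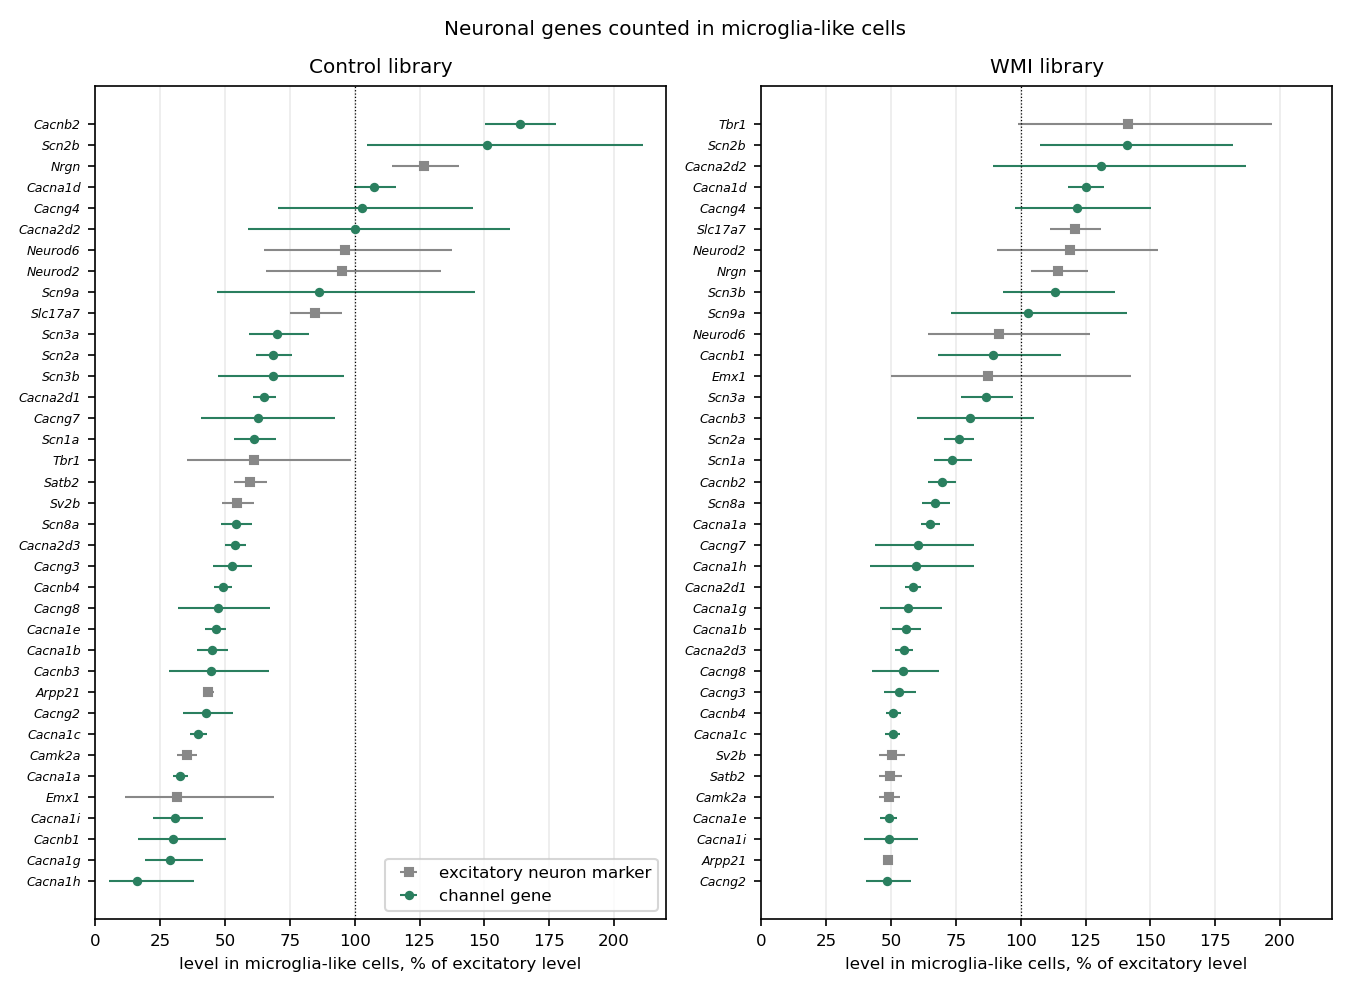
Level in microglia-like cells as a percent of the level in excitatory neuron-like cells (x axis, linear), for the members reported here with enough UMIs and the 10 excitatory markers (rows), with a panel for each library and bars for exact 95% counting intervals. Members and markers are intermixed, with member medians of 54.0% in Control and 66.2% in WMI.

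**Figure D2:**
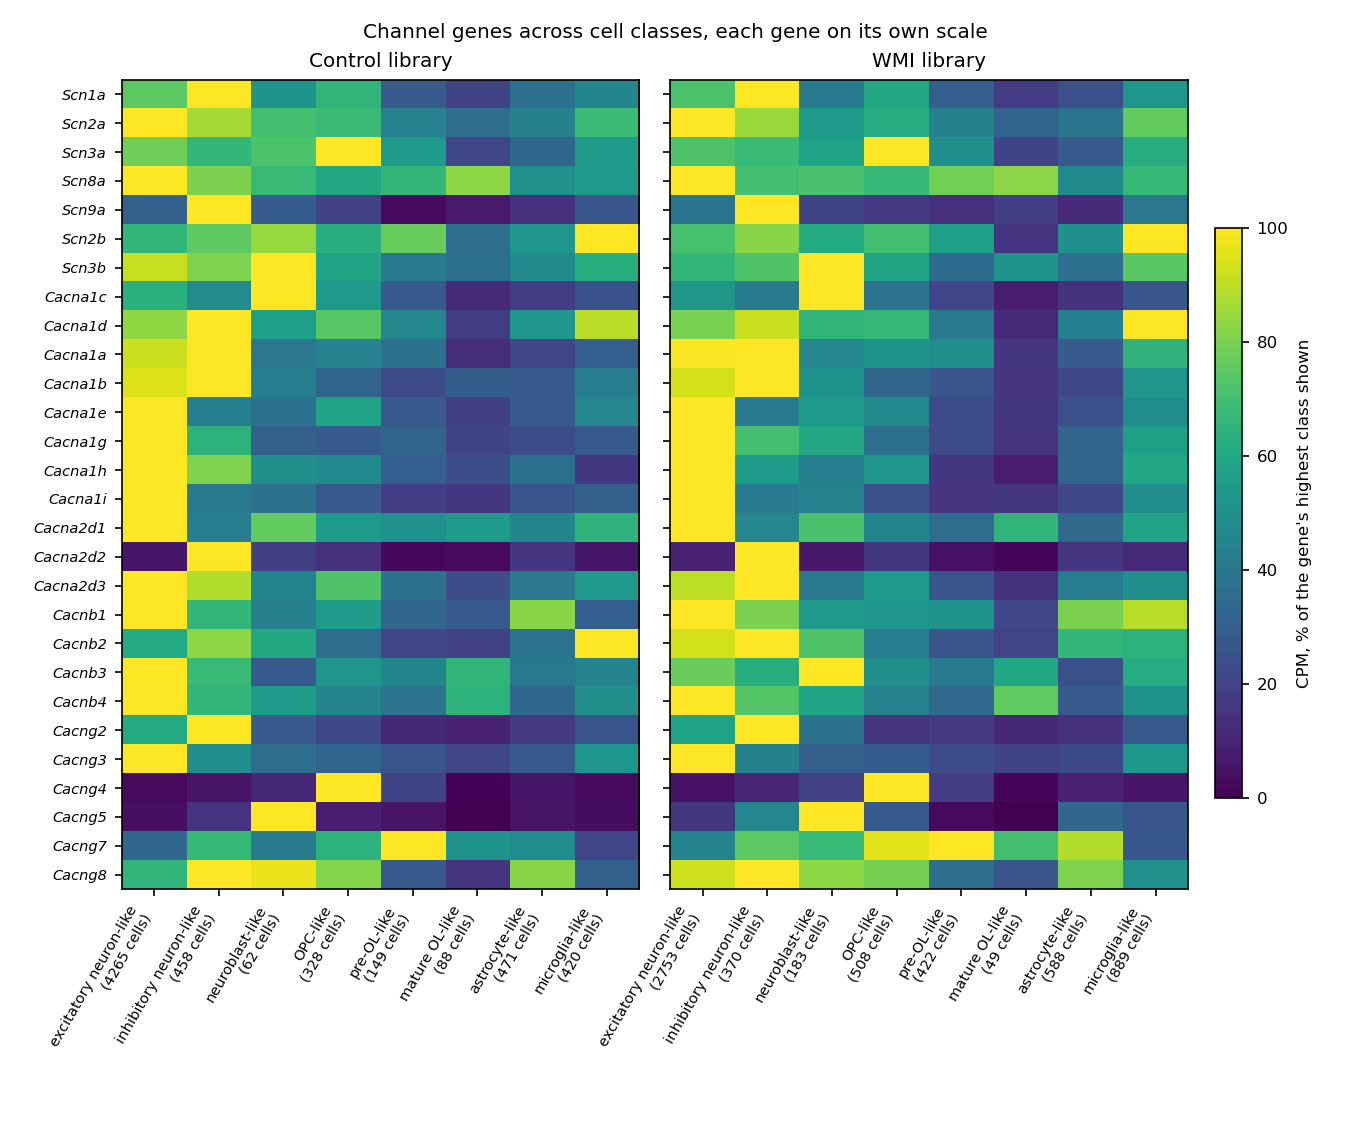
Level of each member reported here with at least 200 UMIs (rows) in 8 cell classes (columns, with cell numbers), as a percent of that gene's highest class shown (colour). Each row has its own scale. In both libraries and among the classes shown, Cacng4 is highest in OPC-like cells, Cacna2d2 in inhibitory neuron-like cells and Cacng5 in neuroblast-like cells.

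Among the sodium channel alpha subunits, Scn1a was moderately higher in inhibitory neuron-like cells and Scn2a and Scn8a in excitatory ones, and none was confined to a class. Scn1a (Nav1.1), the main sodium channel of fast-spiking interneurons, stood at 379 CPM in inhibitory and 283 in excitatory neuron-like cells of Control, and at 331 and 237 in WMI. It was highest in inhibitory cluster 16, at 462 and 376 CPM. Scn2a (Nav1.2), prominent in young excitatory axons, was the reverse, with 419 against 362 CPM in Control and 417 against 354 in WMI. Scn8a (Nav1.6), the channel of mature axon initial segments and nodes, stood at 453 CPM in excitatory against 364 in inhibitory cells of Control and at 414 against 290 in WMI. Scn9a, better known from sensory neurons, was low throughout but 3.24-fold higher in inhibitory than excitatory cells in Control and 2.59-fold in WMI. Each of these intervals excluded equality in both libraries. Microglia-like cells held 61.2% and 73.6% of the excitatory level of Scn1a, 68.5% and 76.2% of that of Scn2a, and 54.1% and 67.2% of that of Scn8a.

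Scn3a (Nav1.3), the sodium channel of the immature brain, was highest in OPC-like cells among the classes drawn in the map of levels by class. Its level there was 196 CPM (176 to 218) in Control and 216 (198 to 235) in WMI, against 154 and 156 in excitatory neuron-like cells and 108 and 135 in microglia-like cells. Striatal projection neuron-like cells of WMI, which were not drawn, held 217 CPM of Scn3a. Of the sodium beta subunits, Scn2b stood at 17.3 and 20.2 CPM in excitatory neuron-like cells and Scn3b at 37.2 and 46.0. Scn2b was highest in microglia-like cells among the classes drawn, at 26.2 and 28.4 CPM, so no other class drawn was above the microglia-like level.

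Of the high-voltage calcium channel pores, Cacna1e separated the neuron classes most clearly. Cacna1e (the R type) stood at 832 CPM in excitatory and 358 in inhibitory neuron-like cells of Control, and at 811 and 335 in WMI. Cacna1a (the P/Q type, which triggers transmitter release) stood at 1110 and 1205 CPM in Control and at 921 and 925 in WMI, with a WMI interval that included equality. Cacna1b (the N type, also presynaptic) differed little, at 353 against 373 CPM and 315 against 336. Among L-type pores, which couple activity to transcription, Cacna1c was higher in excitatory cells, with 1038 against 787 CPM in Control and 1067 against 821 in WMI. Cacna1d was slightly higher in inhibitory cells, with 596 against 497 and 530 against 460 CPM. Microglia-like cells held 534 and 575 CPM of Cacna1d, between the neuron classes in Control and above both in WMI. Among the classes drawn, Cacna1c was highest in neuroblast-like cells, at 1627 CPM in Control and 2020 in WMI, which was 1.57-fold and 1.89-fold the excitatory level. In striatal projection neuron-like cells of WMI, which were not drawn, Cacna1e stood at 897 CPM, above the 811 of excitatory neuron-like cells.

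Of the T-type pores, which open near rest and support burst firing, Cacna1i and Cacna1g were higher in excitatory than in inhibitory cells. Cacna1i stood at 99.4 CPM in excitatory and 40.05 in inhibitory cells of Control and at 81.6 and 33.3 in WMI. Cacna1g stood at 73.0 and 47.3 CPM and at 71.4 and 50.4. Cacna1h stood at 22.5 CPM in excitatory against 18.1 in inhibitory cells of Control, with an interval that included equality, and at 28.2 against 15.6 in WMI. Its level in excitatory cluster 20, with layer 5 markers, was 95.4 and 75.9 CPM, and in the striatal projection neuron-like cells of WMI it was 36.4.

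The alpha2delta subunits, which carry channels to the surface, were divided between the neuron classes. Cacna2d1 stood at 993 CPM in excitatory and 418 in inhibitory neuron-like cells of Control, and at 1005 and 464 in WMI. Cacna2d2 was the opposite, at 13.1 and 213 CPM in Control and 11.2 and 118 in WMI, which made inhibitory cells 16.3-fold and 10.5-fold higher. The divide was sharper within the inhibitory class. Cluster 16 held 334 and 235 CPM of Cacna2d2 and cluster 21, with markers of interneurons from the medial ganglionic eminence, 202 and 159. Cluster 17, with markers of interneurons from the caudal eminence, stood at 11.7 and 11.4 CPM, near the excitatory level. The gene was not particular to interneurons. Striatal projection neuron-like cells of WMI held 139 CPM, above the 118 of inhibitory cells there, while Control had 6 cells of that class. After each cell was thinned to 1000 UMIs, 18.8% of inhibitory cells in Control and 10.5% in WMI had a Cacna2d2 UMI, against 1.501% and 1.20% of excitatory cells. Cacna2d3 peaked in cluster 21, at 1831 and 1949 CPM, and over the classes its direction was not the same in both libraries, with 839 in inhibitory against 948 in excitatory cells in Control and 892 against 804 in WMI. Striatal projection neuron-like cells of WMI held 1295 CPM of Cacna2d3.

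Among the calcium beta subunits, which bind the pore inside the cell, Cacnb4 was the more excitatory and Cacnb2 the more inhibitory gene. Cacnb4 stood at 1161 against 767 CPM in Control and 973 against 711 in WMI. Its highest neuron cluster was cluster 23, with markers of near-projecting neurons, at 2116 and 2038 CPM. Cacnb2 stood at 358 CPM in inhibitory against 264 in excitatory cells in Control and at 472 against 439 in WMI. Among excitatory and inhibitory clusters with at least 50 cells in each library, cluster 17 had the highest level, at 710 and 682 CPM. Striatal projection neuron-like cells of WMI held 763 CPM of Cacnb2. Cacnb1 and Cacnb3 stood at 33.9 and 39.0 CPM in excitatory cells of Control and at 29.9 and 30.03 in WMI.

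The TARPs were divided between the neuron classes. Cacng2 (stargazin) was higher in inhibitory cells, at 231 against 142 CPM in Control and 202 against 117 in WMI, while Cacng3 was higher in excitatory cells, at 279 against 137 and 252 against 111. Cacng3 peaked in upper-layer cluster 1, at 495 and 426 CPM. Cacng8 stood at 72.4 against 47.6 CPM in Control, higher in inhibitory cells, and at 64.7 against 60.1 in WMI with an interval that included equality. Over the 29 members with enough UMIs, 10 were higher in inhibitory cells with intervals off equality in both libraries (15.1% of all genes), 9 were lower (13.1%) and 10 were neither. All genes here include those the cells were clustered on, which the members were not, and an interval narrows as UMIs increase. Single excitatory markers stood in inhibitory cells at 21.1 to 54.6% of their excitatory level in Control and 14.3 to 46.2% in WMI, and the ratios of Cacna1i, Cacna2d1, Cacna1e and Cacng3 lay within these ranges.

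**Figure D3:**
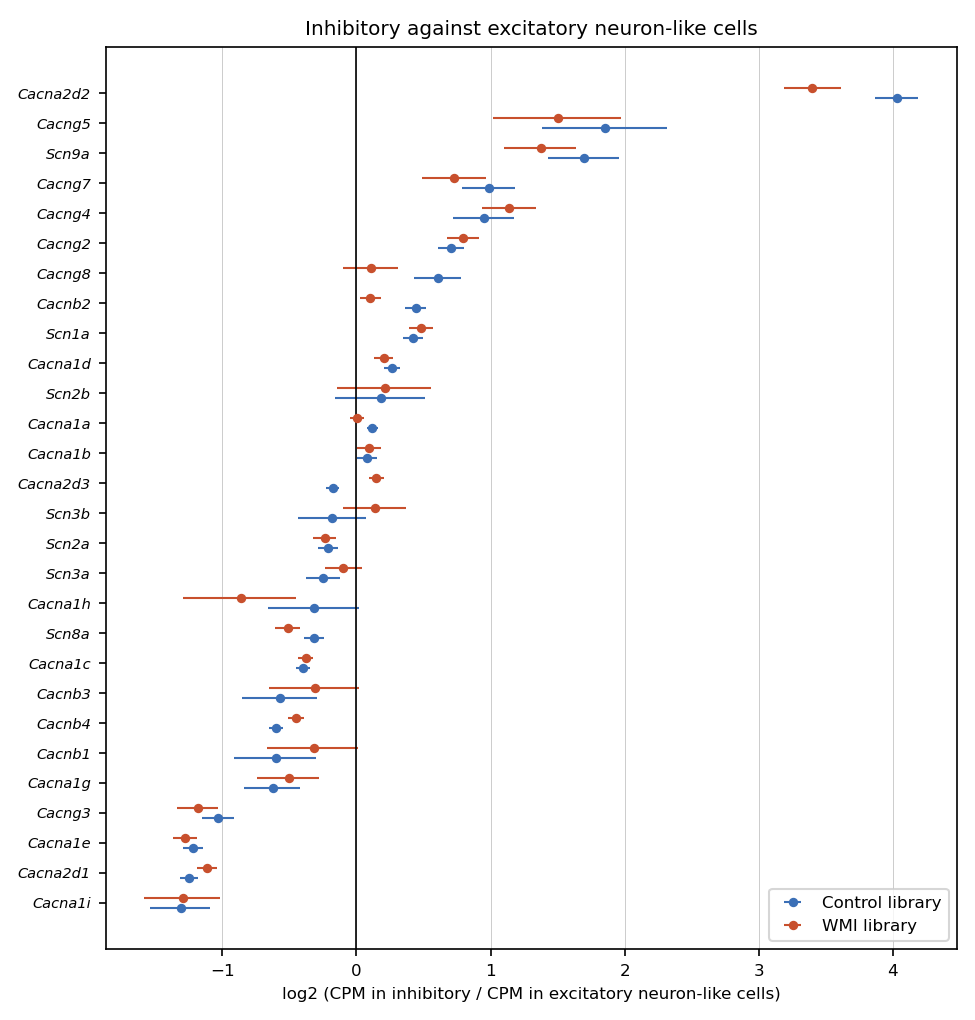
Log2 ratio of the level in inhibitory to that in excitatory neuron-like cells (x axis) for each member reported here with enough UMIs (rows), with a point for each library and bars for exact 95% counting intervals. Cacna2d2 lies furthest to the right in both libraries (log2 4.03 in Control and 3.40 in WMI) and Cacna1i, Cacna2d1, Cacna1e and Cacng3 lie at or below log2 -1.03 in both.

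Cacng4 was the member of the oligodendrocyte precursors. It stood at 875 CPM in OPC-like cells of Control and 698 in WMI, against 24.0 and 41.4 in microglia-like cells, which made it 36.5-fold and 16.9-fold higher. It was lower in pre-OL-like cells, at 181 and 120 CPM, and in mature OL-like cells it was at 8.10 and 10.6, below the microglia-like level. After thinning to 1000 UMIs, 51.8% of OPC-like cells in Control and 44.5% in WMI had a Cacng4 UMI, against 1.90% and 4.61% of microglia-like cells (class medians of 4928.5 and 4365.5 UMIs in OPC-like and 3126.5 and 2165 in microglia-like cells). Of the 22 members compared, 6 were above the microglia-like level in OPC-like cells of both libraries (14.7% of all genes). These were Scn3a, Cacna1c, Cacna2d3, Cacng4, Cacng7 and Cacng8, and 5 members were below it (28% of all genes). Cacna1c stood at 873 and 768 CPM in OPC-like cells against 412 and 540 in microglia-like cells, and Cacna2d3 at 687 and 493 against 510 and 442.

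From OPC-like to pre-OL-like cells, 12 of 19 members were lower in both libraries (18.9% of all genes) and 0 were higher (15%). Scn3a went from 196 to 106 CPM in Control and from 216 to 108 in WMI, and Cacna1e from 478 to 233 and from 385 to 184. Scn8a stood at 299 and 326 CPM in pre-OL-like cells and 375 and 342 in mature OL-like cells, above the 245 and 278 of microglia-like cells. After thinning, however, 35.2% of mature OL-like cells in Control (31 of 88) and 12.2% in WMI (6 of 49) had a Scn8a UMI, against 23.1% and 25.8% of microglia-like cells, so in WMI the share went against the level. From pre-OL-like to mature OL-like cells 8 of 16 members were lower (24.8% of all genes) and 1 was higher (15%), Cacnb4, which went from 445 to 752 CPM in Control and from 332 to 736 in WMI. In mature OL-like cells of both libraries 2 of 16 members, Scn8a and Cacnb4, were above the microglia-like level in CPM (14.6% of all genes) and 13 were below it (40.1%). The excitatory markers changed little from OPC-like to pre-OL-like cells, from 37.5% to 36.4% of their excitatory level in Control and from 34.0% to 32.9% in WMI. From pre-OL-like to mature OL-like cells they went down, to 22.9% in Control and 16.1% in WMI. Their part in these counts was not tested.

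In astrocyte-like cells 14 of 23 members were below the microglia-like level in both libraries (28% of all genes), and 3, Cacng4, Cacng7 and Cacng8, were above it (16.6%). The excitatory markers were also lower there, at 34.5% and 27.9% of their excitatory level against 50.6% and 55.9% in microglia-like cells. Cacng7, a TARP-like gamma, stood at 43.6 and 61.3 CPM in astrocyte-like cells against 18.9 and 19.0 in microglia-like cells. Among named classes with at least 50 cells in a library, Cacng7 was highest in pre-OL-like cells, at 89.4 and 69.4 CPM. In pre-OL-like cells 3 of 19 members, Scn8a, Cacng4 and Cacng7, were above the microglia-like level in both libraries (15.1% of all genes). There 12 were below it (29.2%). Among the classes drawn, Cacng5 was highest in neuroblast-like cells, as was Cacna1c. These are young neurons with few cells in each library (62 and 183). Cacng5 stood at 85.04 CPM (53.9 to 128) in Control and 32.3 (20.7 to 48.0) in WMI, against 3.56 and 5.28 in excitatory neuron-like cells. In WMI it was not particular to neuroblast-like cells, since striatal projection neuron-like cells, which were not drawn, held 29.1 CPM. After thinning, 12.9% and 2.19% of neuroblast-like cells had a Cacng5 UMI.

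The comparison of WMI with Control asks whether the injury came with a different channel repertoire in each class. A member was called when the levels differed by at least 1.5-fold with at least 200 UMIs over both libraries. Few members passed, too few for their share to be read as near or far from that of all genes. In excitatory neuron-like cells 1 of 29 members was called higher, with 3.96% of all genes called higher, and 0 were called lower, with 6.04% of all genes. These cells include the shallow cluster 2, with 1083 Control and 20 WMI cells. Without clusters with at least 90% of cells from 1 library, cluster 2 among them, 3 of 29 were higher (5.2%) and 0 lower (3.56%). In inhibitory neuron-like cells 2 of 24 were higher (4.03% of all genes) and 1 lower (2.53%). In OPC-like plus pre-OL-like cells together 1 of 19 was higher (4.21%) and 2 lower (2.54%), in astrocyte-like cells 1 of 17 higher (9.96%) and 1 lower (5.57%), and in microglia-like cells 1 of 15 higher (9.24%) and 0 lower (5.81%).

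**Figure D4:**
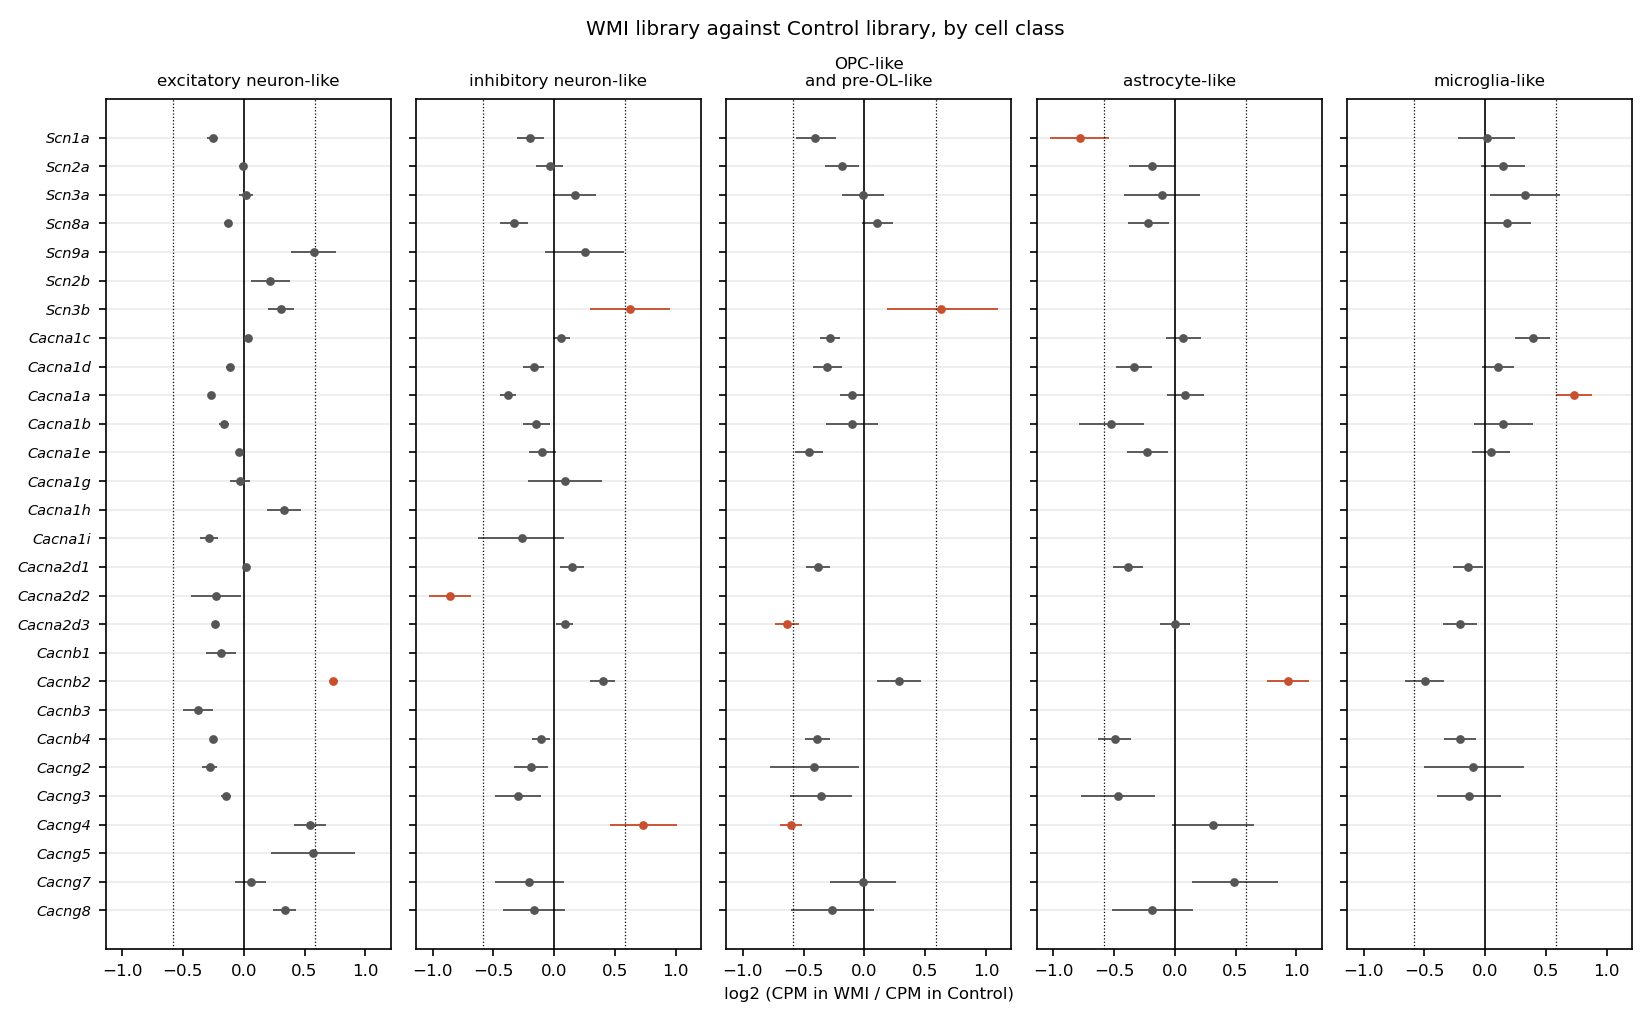
Log2 ratio of WMI to Control (x axis) for the members reported here (rows) with at least 200 UMIs in each of 5 cell classes (panels), with bars for exact 95% counting intervals and dotted lines at the 1.5-fold limit. Coloured points are past the limit, with 1 in excitatory neuron-like cells and 3 each in inhibitory neuron-like cells and in OPC-like plus pre-OL-like cells, and Cacnb2 is past it in excitatory neuron-like and astrocyte-like cells.

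Cacnb2 was past the limit in excitatory neuron-like and astrocyte-like cells. It stood at 264 CPM (258 to 269) in Control and 439 (432 to 446) in WMI in excitatory neuron-like cells, a log2 ratio of 0.74 (0.70 to 0.77). In astrocyte-like cells it stood at 165 and 313 CPM, a log2 ratio of 0.93 (0.76 to 1.10). The share of cells with a Cacnb2 UMI after thinning went with this, at 21.03% and 31.7% of excitatory neuron-like cells and 12.5% and 24.5% of astrocyte-like cells. Microglia-like cells ran the other way, at 431 and 305 CPM (log2 -0.50, -0.66 to -0.34) and 33.1% and 27.1% of cells. Their Control level was above that of excitatory neuron-like and astrocyte-like cells, and the part of free RNA in these values was not tested.

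By cluster, Cacnb2 was higher in WMI in 13 of 15 clusters with at least 100 cells in each library, with an interval above 0 in 12. The largest ratio was in upper-layer cluster 7, which held 144 Control and 572 WMI cells, at 262 against 667 CPM (log2 1.35, 1.20 to 1.498). Cluster 20 stood at 221 and 434 CPM (log2 0.97), and cluster 17 at 710 and 682 (log2 -0.06). With equal weight for each cluster the ratio in excitatory neuron-like cells was 0.44, and with doublets kept or another clustering resolution (0.4 or 1.6) it was 0.51, in each case under the 1.5-fold limit. Without clusters with at least 90% of cells from 1 library, cluster 2 among them, that ratio was 0.72. Cluster 7 was kept in that setting, so its larger number of cells in WMI still entered the ratio. In summed UMIs of a class, a different mix of clusters and a different level within clusters cannot be told apart.

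Cacna2d2 was lower in inhibitory neuron-like cells of WMI, at 213 CPM in Control and 118 in WMI (log2 -0.86, -1.03 to -0.69). The clusters contributed unequally. Cluster 17, where the gene was near the excitatory level, held 136 Control and 164 WMI cells, and cluster 16, which has most of it, 207 and 121. Within cluster 16 the log2 ratio was -0.51 and within cluster 21 it was -0.35, and with equal weight for each cluster it was -0.43, under the limit. In summed UMIs of a class, fewer cells of a subtype and less RNA per cell cannot be told apart, and here both the cell numbers and the levels within clusters were lower in WMI.

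**Figure D5:**
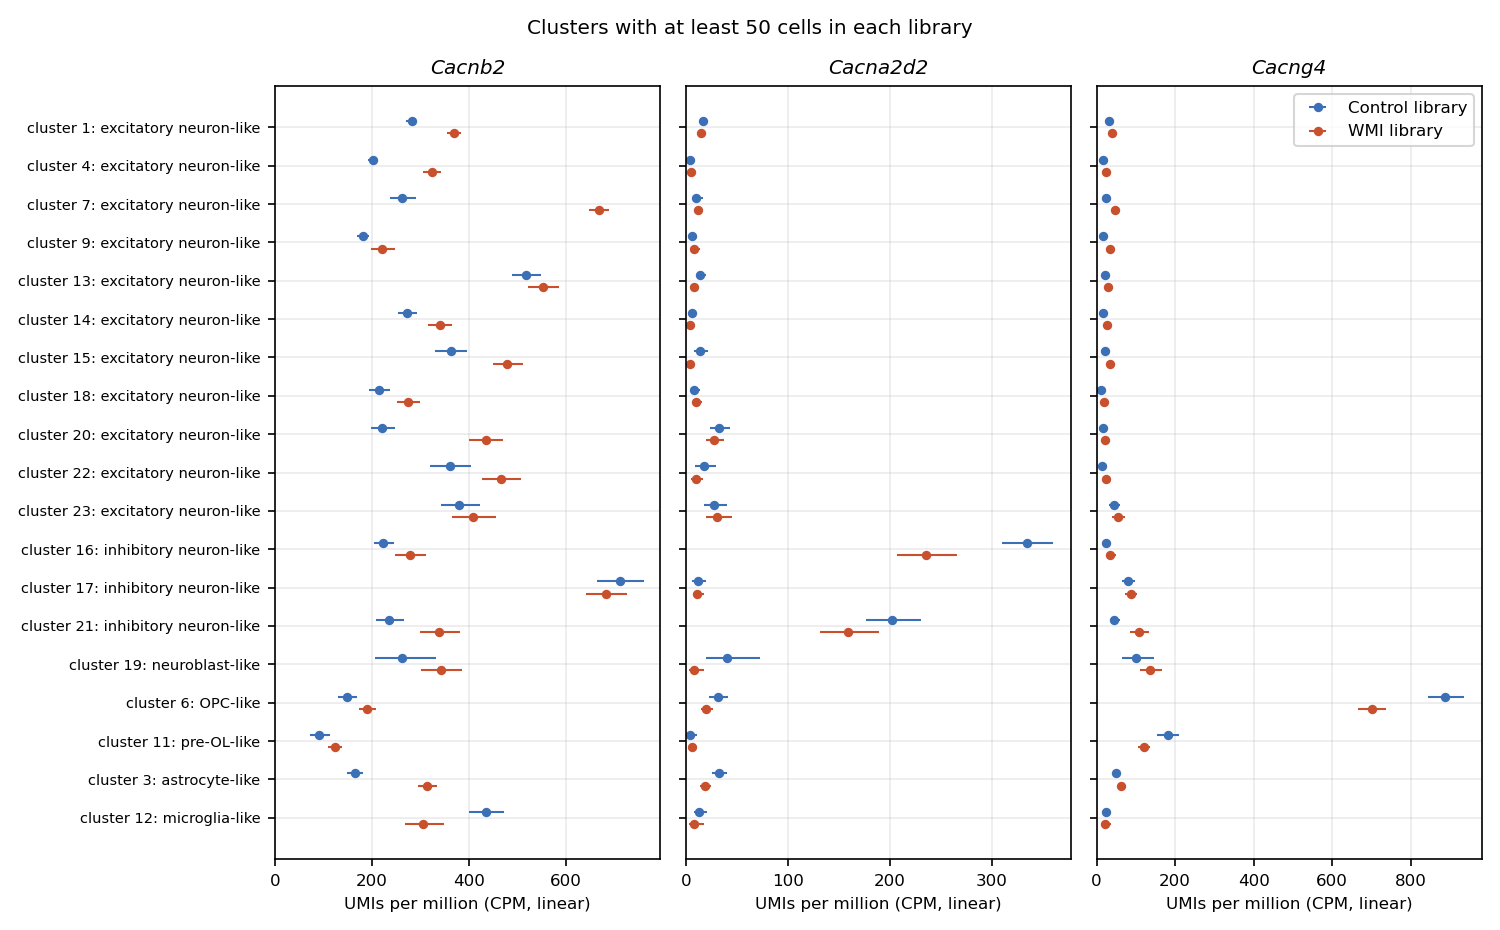
Levels of Cacnb2, Cacna2d2 and Cacng4 (panels, CPM on a linear axis) in named clusters with at least 50 cells in each library (rows), with a point for each library and bars for exact 95% counting intervals. Cacnb2 is apart between libraries in cluster 7 (262 and 667 CPM), Cacna2d2 is concentrated in inhibitory clusters 16 and 21, and Cacng4 in OPC-like cluster 6 (888 and 701 CPM).

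Cacng4 was lower in the oligodendrocyte lineage of WMI and higher in neurons. In OPC-like plus pre-OL-like cells together it stood at 642 CPM in Control and 422 in WMI (log2 -0.60, -0.70 to -0.51). The difference was smaller within OPC-like cells (875 and 698 CPM, log2 -0.33), and in pre-OL-like cells it was -0.59 (181 and 120 CPM). WMI held 422 pre-OL-like cells beside 508 OPC-like cells, and Control 149 beside 328, and with equal cluster weights the combined ratio was -0.38. The combined call was also lost with doublets kept (-0.58) and without cells holding Xist or Tsix (-0.57). In inhibitory neuron-like cells Cacng4 stood at 45.0 and 74.9 CPM (log2 0.73, 0.46 to 1.01), a difference that came to 0.35 with doublets kept, and in excitatory neuron-like cells at 23.3 and 34.0 (log2 0.54). Microglia-like cells, with 33 and 96 UMIs, were at 24.0 and 41.4 CPM, so the excitatory level was not above the microglia-like level in either library.

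Cacna2d3 was the other member lower in the lineage, at 576 and 370 CPM (log2 -0.64, -0.74 to -0.54). It was lower in OPC-like cells (687 and 493 CPM, log2 -0.48) and in pre-OL-like cells (359 and 236, log2 -0.61). Microglia-like cells stood at 510 and 442 CPM, above the pre-OL-like level in both libraries and above the combined level in WMI. With equal cluster weights the combined ratio was -0.52, under the limit. Over the 19 members the median log2 ratio in OPC-like plus pre-OL-like cells was -0.28, against 0.04 over all genes. For 12 of the members the interval lay below 0 (16.2% of all genes) and for 2 above it (20.3%). The mix of the 2 stages differed between the libraries, and an interval narrows as UMIs increase. Within OPC-like cells the median was -0.19 (0.02 over all genes), with 9 of 17 intervals below 0 (13.4%) and 1 above (14.6%). Within pre-OL-like cells it was -0.12 (0.03 over all genes), with 6 of 15 below 0 (16.6%) and 1 above (16.9%). The excitatory markers summed to 2053 CPM in Control and 1655 in WMI in OPC-like cells and to 1993 and 1603 in pre-OL-like cells, and their part in these values was not tested. In OPC-like cells alone 0 of 17 members were called in either direction, where 2.51% and 1.7% of all genes were called higher and lower. In pre-OL-like cells 2 of 15 members were called lower (3.96% of all genes), again Cacna2d3 and Cacng4, and 0 higher (4%).

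Scn3b, a sodium beta subunit, was higher in WMI in inhibitory neuron-like cells, at 32.8 and 50.7 CPM (log2 0.63, 0.30 to 0.96), and in OPC-like plus pre-OL-like cells, at 21.4 and 33.1 (log2 0.63, 0.18 to 1.09). Microglia-like cells stood at 25.5 and 52.1 CPM. That was above the OPC-like plus pre-OL-like level in both libraries and above the inhibitory level in WMI only. The part of free RNA in these values was not tested. The call in OPC-like plus pre-OL-like cells was lost with doublets kept (log2 0.43), and that in inhibitory cells with equal cluster weights (0.46). By cluster the level was higher in WMI in 13 of 15 clusters, with an interval above 0 in 7.

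Scn1a was lower in astrocyte-like cells of WMI, at 139 and 80.7 CPM (log2 -0.78, -1.02 to -0.54). Both values were below the 173 and 175 CPM of microglia-like cells, and the excitatory markers in astrocyte-like cells were also lower in WMI, at 27.9% of their excitatory level against 34.5% in Control. The part of free RNA in this difference was not tested. Across clusters Scn1a was lower in WMI in 14 of 15, with log2 ratios of -0.26 in excitatory and -0.20 in inhibitory neuron-like cells. Cacna1d and Cacna1b were also lower in 14 of 15 clusters. Scn2a, Scn8a, Cacna1e, Cacna2d3 and Cacng2 were lower in 13, and Cacna1a and Cacna2d1 in 12. Intervals lay below 0 in 11 clusters for Scn1a, 10 for Cacna1d and 9 for Cacna1b. They did so in 1 for Scn2a, 9 for Scn8a, 12 for Cacna1e, 11 for Cacna2d3 and 5 for Cacng2. For Cacna1a they did so in 12 and for Cacna2d1 in 7. Cacna1d, Cacna1a and Cacna2d1 each had an interval above 0 in 1 cluster. Other members went the other way. Scn2b was higher in WMI in 12 of 13 clusters, with an interval above 0 in 4 and below 0 in 0. Cacng4 was higher in 12 of 14, with an interval above 0 in 4 and below 0 in 2. Cacnb2 and Scn3b were higher in 13 of 15. All clusters come from the same 2 libraries, so they are not independent. The same counts over all genes were not made.

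Cacna1a was the member higher in microglia-like cells of WMI, at 362 CPM in Control and 601 in WMI (log2 0.73, 0.58 to 0.88). Control microglia-like cells came mainly from cluster 12 (397 of 420 cells) and those of WMI from cluster 8 (697 of 889). Within cluster 12 the level was 355 and 652 CPM (log2 0.88, 0.69 to 1.06), and activated myeloid-like cells of WMI stood at 636 CPM. The gene was lower in WMI in both neuron classes, with log2 ratios of -0.27 in excitatory and -0.38 in inhibitory cells. In WMI the microglia-like level was 65.2% of the excitatory level, within the 49.1 to 141% of single excitatory markers, and the part of free RNA was not tested.

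A list of 30 partner genes was measured beside the members, with 27 in the files. Many encode proteins that bind or organise these channels. Others belong to the Nalcn leak channel or, like Shisa9, to AMPA-type glutamate receptors. In excitatory neuron-like cells 24 could be compared, and the median log2 ratio was -0.04. Stac, an adaptor of L-type channels, was past the limit at 14.1 and 25.3 CPM (log2 0.85, 1 of 24 higher against 3.96% of all genes), as was its relative Stac2 in the other direction at 4.70 and 2.88 (log2 -0.71, 1 lower against 6.04%). In inhibitory neuron-like cells 19 were compared, and 1 was higher (4.03% of all genes) and 1 lower (2.53%). Fgf13, which modulates sodium channels, stood at 703 and 1082 CPM (log2 0.62), and Stac2 at 50.9 and 25.8 (log2 -0.98). In OPC-like plus pre-OL-like cells 0 of 18 passed in either direction (4.21% of all genes higher and 2.54% lower). In astrocyte-like cells 2 of 17 were lower (5.57% of all genes), Rims1 (log2 -0.61) and Shisa9 (-0.62), where the excitatory markers summed to 1891 CPM in Control and 1356 in WMI. In microglia-like cells 2 of 16 were higher (9.24%), Sptbn4 (0.70) and Nfasc (0.73).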

How the data were processed

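Single-cell RNA-seq libraries of mouse cerebral cortex were analysed, 1 of Control and 1 of WMI. Per the file headers, the authors made the deposited count matrices with Cell Ranger 6.1.1, as raw UMI counts per gene and barcode with no normalization. Per the labels, Seurat was also used. The labels name build mm9, whereas all 55450 gene IDs and symbols match GENCODE M21 on GRCm38, which gave gene positions here. The barcodes exceed the cell numbers in the study's text. Counts cover all members, and 2 of them are not reported individually here. In all, 0 columns belonged to other samples.

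Barcodes with at least 1000 UMIs, 500 genes and at most 10% mitochondrial UMIs were kept. Removed as low quality were 748 in Control and 241 in WMI. Doublets were scored against artificial ones (0.8% per 1000 barcodes expected), and 785 and 542 were removed. The caller marked 78.0% and 74.8% of added artificial doublets. The libraries shared 36 barcodes. Cells were clustered in Seurat 5.3.0 (R 4.3.3, Matrix 1.6.5) on 2000 variable genes and 30 dimensions at resolution 0.8, leaving out the members, their partner genes, cell-cycle genes, Xist, Tsix and Y-linked genes. Clusters were named "-like" from fixed marker lists. A marker counted at 25% or more of its highest cluster, in 10% of cells and 3-fold over the lower quartile of clusters. A name needed 40% of a list and 4 markers, or 60% and 3 markers for layer lists. These thresholds were set after seeing the clusters, and excitatory clusters 7, 20 and 23 were named through layer lists. The members and lists were chosen with earlier results of these data known.

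UMIs were summed per class and library and divided by all UMIs of the class. Levels have exact Poisson, ratios exact conditional binomial and shares Clopper-Pearson 95% intervals, which cover counting error only. Classes were compared with at least 100 cells in each library. Values are given in full for the up to 4 most counted members of a role group and for members past 1.5-fold, and members with 10 or fewer UMIs are named as a group. A fold of 1.5 with 200 UMIs over both libraries was the limit, without a test. The ratio and its interval were tested on simulated data. Alternatives were doublets kept, resolutions of 0.4 and 1.6, totals without mitochondrial genes, scaling to the median ratio, minimums of 50 and 1 UMI, leaving out clusters with at least 90% of cells from 1 library, equal cluster weights (clusters with 20 cells), leaving out cells with Xist or Tsix, at most 1% mitochondrial UMIs, and a 2-fold limit. Of the members, 23 overlap another annotated gene, mostly on the other strand, and the strand setting of the counting was not given in the sources used here. Cacnb2 overlaps 15 annotated genes, several of them on its own strand, and their part in its counts was not tested. Python 3.11.15, numpy 2.4.6, pandas 2.3.3, scipy 1.17.1, scikit-learn 1.9.0 and matplotlib 3.10.9 were used.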

Additional observations from a re-analysis of the deposited data

Results flagged for a closer look

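Several members differed between the libraries in opposite directions in different cell classes, with counting intervals off 0 on both sides. These differences between classes were not tested. Cacnb2 had a log2 ratio of WMI to Control of 0.93 in astrocyte-like and 0.74 in excitatory neuron-like cells against -0.50 in microglia-like cells. Cacna1a had 0.73 in microglia-like cells against -0.27 in excitatory neuron-like, -0.38 in inhibitory neuron-like and -0.16 in OPC-like cells. For both genes the microglia-like side is also the gauge of background, and the part of free RNA was not tested. Cacng4 had -0.60 in OPC-like plus pre-OL-like cells together, -0.59 in pre-OL-like and -0.33 in OPC-like cells, against 0.54 in excitatory and 0.73 in inhibitory neuron-like cells. Its excitatory level was not above the microglia-like level in either library, so that value is not read as above background. Cacna2d3 had -0.64 in OPC-like plus pre-OL-like cells together and -0.61 in pre-OL-like cells, against 0.09 in inhibitory neuron-like cells. Its pre-OL-like level was below the microglia-like level in both libraries, and its combined level was below it in WMI.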

How the results depend on the processing

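No paired analysis was possible because each group has a single library. With a 2-fold limit, 0 members were called in excitatory neuron-like (higher), inhibitory neuron-like, OPC-like plus pre-OL-like or astrocyte-like cells. Of all genes, 0.338% (lower, inhibitory) to 3.31% (higher, astrocyte-like) were called at that limit. With a minimum of 1 UMI the counts higher and lower were 4 and 3 in excitatory, 8 and 4 in inhibitory, 4 and 5 in OPC-like plus pre-OL-like and 8 and 4 in astrocyte-like cells, where 17.4% and 25%, 21.2% and 24.6%, 24.8% and 22.3%, and 32.7% and 18.1% of all genes were called. With a minimum of 50 they were 2 and 2 in excitatory cells (6.38% and 9.91% of all genes), and 3 were lower in astrocyte-like cells (6.48%). With doublets kept, 0 were higher in excitatory (2.85% of all genes), 1 in inhibitory (3.21%) and 0 in OPC-like plus pre-OL-like cells (5.84%). In that setting 4 were lower in astrocyte-like cells (4.87% of all genes), while the 2 lower in OPC-like plus pre-OL-like cells (2.9%) were Cacna1i and Cacna2d3. At resolutions 0.4 and 1.6, 0 were higher in excitatory cells (2.71% of all genes at each), and at 1.6, 1 was higher in inhibitory cells (3.73%). Equal cluster weights left 0 higher in excitatory cells (5.59% of all genes) and 1 higher (3.24%) and 0 lower (1.74%) in inhibitory cells. They left 0 lower in OPC-like plus pre-OL-like cells (2.37%). Without clusters mostly of 1 library 3 were higher in excitatory cells (5.2% of all genes). With at most 1% mitochondrial UMIs 2 were (3.78%), with 0 higher in OPC-like plus pre-OL-like cells (3.39%). Without cells holding Xist or Tsix, 4 were higher in excitatory (3.72% of all genes) and 1 in inhibitory cells (3.34%). In that setting 0 were higher (2.78%) and 1 lower (2.72%) in OPC-like plus pre-OL-like cells, and 3 were lower in astrocyte-like cells (7.38%). Scaled to the median ratio, 4 were higher in excitatory cells (4.81% of all genes) and 2 lower in astrocyte-like cells (7.42%). The cause of these moves was not tested, apart from fewer or more genes meeting a minimum or a limit. The other 57 counts stayed within 1.5 times the reported count.

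Over 9 alternatives none of the 12 named log2 ratios changed sign. Not every alternative could move every ratio. Astrocyte-like and pre-OL-like cells were 1 cluster each, so equal cluster weights and leaving out clusters mostly of 1 library could not change theirs. Cacnb2 ranged from 0.44 to 0.79 in excitatory and 0.85 to 1.03 in astrocyte-like cells, Cacna2d2 in inhibitory cells from -1.04 to -0.43, and Cacng4 in OPC-like plus pre-OL-like cells from -0.65 to -0.38. Cacna2d3 there ranged from -0.68 to -0.52, Scn1a in astrocyte-like cells from -0.86 to -0.75 and Cacna1a in microglia-like cells from 0.63 to 0.88. Without thinning, 92.1% and 85.2% of OPC-like cells had a Cacng4 UMI, 50.1% and 63.3% of astrocyte-like cells one of Cacnb2, and 62.0% and 40.5% of inhibitory neuron-like cells one of Cacna2d2. The class with the highest level was the same for 52 of 60 pairs of member and library with doublets kept and for 47 of 60 at resolution 0.4.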
